A study of Mus musculus with 6 samples.

Results

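The mesonephros lies along the embryonic gonad, and its tubules and duct are epithelia that can be carried with the gonad when it is dissected. RNA of 8 genes of these epithelia (Pax2, Pax8, Lhx1, Cdh16, Cdh1, Ret, Wnt9b and Gata3) was followed in 13.5 dpc ovaries of CD1 mice. The genes were taken by name, through the Ensembl identifiers of the count table. All 8 were found among the 48709 genes of the table, and all 8 passed the filter on low counts that left 20167 genes for testing. The study compared 3 control pools with 3 APAP+IBU pools of fetal ovaries, and each pool gave 1 library. Dams of the exposed group received acetaminophen (APAP, 30 mg/kg per day) and ibuprofen (IBU, 15 mg/kg per day) by gavage. Dams of the control group received the vehicle alone, ethanol diluted in PBS. Both groups were dosed from 10.5 to 13.5 dpc, with 4 gavages per day, 3 hours apart. Each pool joined gonads of several embryos, so differences between single embryos were averaged. The methods do not state whether the mesonephros was removed from the ovaries used for RNA, while for histology they name mesogonads.

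The nephric duct and the mesonephric tubules arise from intermediate mesoderm, where PAX2, PAX8 and LHX1 are among the earliest transcription factors of the lineage. GATA3 acts in the duct upstream of RET, the receptor of GDNF, and WNT9B is secreted by the duct and induces tubules from the surrounding mesenchyme. E-cadherin (Cdh1) and kidney-specific cadherin (Cdh16) join the epithelial cells of duct and tubules. Several of these genes are not confined to the mesonephros: fetal germ cells carry E-cadherin, sympathetic neurons use RET and GATA3, and the Müllerian duct uses PAX2 and LHX1.

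Promoters of 5 of the 8 genes were in the RefSeq promoter table (GRCm38.p6). Cdh16, Cdh1 and Ret were not in it, and Pax2 had 3 start sites. The 200 bases before the start are shown for the 4 genes with a single listed start. Each is written 5′ to 3′ on the gene's own strand, with matches to the searched motifs in capitals.
Pax8 (chr2:24475600-24475799, minus strand): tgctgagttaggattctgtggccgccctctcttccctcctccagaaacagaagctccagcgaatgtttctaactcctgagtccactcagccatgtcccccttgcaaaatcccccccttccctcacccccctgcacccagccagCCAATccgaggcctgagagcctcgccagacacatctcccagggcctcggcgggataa
Lhx1 (chr11:84525535-84525734, minus strand): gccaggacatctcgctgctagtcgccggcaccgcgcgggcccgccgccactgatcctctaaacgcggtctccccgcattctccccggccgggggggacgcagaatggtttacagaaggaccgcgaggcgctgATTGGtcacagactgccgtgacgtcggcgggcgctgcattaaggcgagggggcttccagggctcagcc
Wnt9b (chr11:103749822-103750021, minus strand): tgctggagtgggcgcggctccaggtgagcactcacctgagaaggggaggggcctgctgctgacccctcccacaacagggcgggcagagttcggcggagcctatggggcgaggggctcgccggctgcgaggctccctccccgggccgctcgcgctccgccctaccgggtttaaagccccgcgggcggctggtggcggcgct
Gata3 (chr2:9878601-9878800, minus strand): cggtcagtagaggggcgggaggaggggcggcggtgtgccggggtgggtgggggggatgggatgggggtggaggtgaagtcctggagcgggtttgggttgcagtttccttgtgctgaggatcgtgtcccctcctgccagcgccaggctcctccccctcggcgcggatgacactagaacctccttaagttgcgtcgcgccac
The capitals mark a CCAAT box (CCAAT, or ATTGG on the other strand), which stood before Pax8 and Lhx1 and in 29.3% of all 32851 promoter windows of this length. The 5 other motifs searched on both strands were TATAAA (9.96% of windows), AGATAA of GATA factors (7.8%), GTCACGC of paired-domain factors (1.54%), TAATTA of homeodomain factors (3.73%) and AACCGGTT of Grainyhead factors (0.0822%). None of these 5 had a match in any of the 7 windows of the 5 genes, which says only that these letters were not in these windows. The letters G and C made up 60% of the Pax8 window, 68.5% for Lhx1, 74% for Wnt9b and 67.5% for Gata3.

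The libraries held between 37811968 and 48954631 counts. Germ cell and supporting cell markers were present in all 6, with Ddx4, a germ cell RNA helicase, at 191 to 268 CPM (counts of a gene per 1000000 counts of the library after TMM scaling) and Fst, the follistatin of the fetal ovary, at 105 to 149 CPM. Foxl2, a transcription factor of pre-granulosa cells, was low, at 0.944 to 8.16 CPM. RNA of other tissues was also present. The 8 liver genes summed to between 170.1 and 3025 CPM and were highest in replicate 3 of both groups. The 7 spermatid genes summed to between 34.07 and 132.4 CPM in controls and between 1.57 and 5.28 CPM in the exposed group, with the top value in control replicate 1. A fetal ovary holds no spermatids. Their part in the values below was not tested, and each difference between groups was also computed with every library left out in turn.

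All 8 genes had counts in every library, from 38 counts of Wnt9b in APAP+IBU replicate 2 to 2090 counts of Cdh16 in APAP+IBU replicate 1. Levels of different genes were compared per kilobase of exon. Both cadherins stood highest, with a mean of 9.28 CPM per kb for Cdh16 and 7.41 CPM per kb for Cdh1. Ret followed at 2.31, Pax8 at 1.97, Gata3 at 1.4, Lhx1 at 1.02, Wnt9b at 0.588 and Pax2 at 0.57 CPM per kb. The gap between Cdh1 and Ret was the only one between neighbours that exceeded the spread over libraries: the lowest Cdh1 value was 4.73 and the highest Ret value 2.54 CPM per kb. Every other pair of neighbours in this order had ranges that overlapped.

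**Figure D1:**
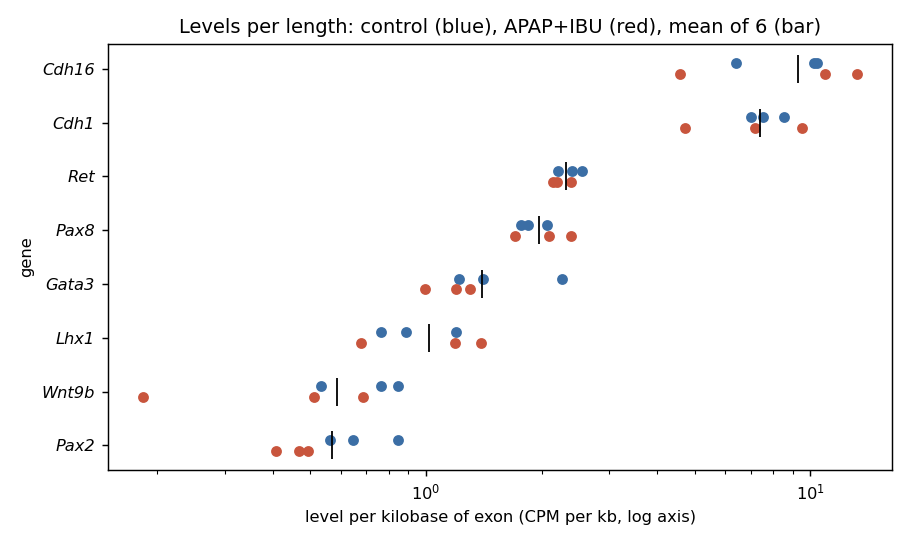
Level of the 8 genes in CPM per kilobase of exon, on a log axis, with 1 point per library (control blue, APAP+IBU red) and a bar at the mean of 6. Cdh16 (9.28 CPM per kb) and Cdh1 (7.41 CPM per kb) lie apart from the other 6 genes, whose ranges run into one another, and the single point far to the left is Wnt9b in APAP+IBU replicate 2 (0.184 CPM per kb).

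None of the 8 genes differed between the groups at an adjusted p under 0.05 in the edgeR quasi-likelihood test, where the call rate over all 20167 genes was also 0%. The smallest adjusted p of any gene was 0.0906. At an unadjusted p under 0.05, 1 of the 8 genes passed, Pax2, beside 6.22% of all genes tested. DESeq2 gave 0 of the 8 at an adjusted p under 0.05, beside 0.952% of all genes, and again Pax2 alone at the unadjusted threshold, beside 7.64% of all genes. In edgeR, Gata3 joined Pax2 at the unadjusted threshold without control replicate 3, where 30.5% of all genes passed it, and with replicates 1 and 2 of each group only, where 41% did. Fold changes were positive for 3 genes and negative for 5, with a median log2 fold change of -0.10 beside -0.00467 over all genes tested. The exact permutation test of 3 against 3 libraries cannot go below 0.1. In such bulk RNA, fewer cells of a type and less RNA per cell cannot be told apart.

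Among the transcription factors, Pax2 (ENSMUSG00000004231, chr19:44756045-44837871, plus strand, GRCm38) was at 3.49, 4.58 and 3.04 CPM in control replicates 1, 2 and 3 and at 2.66, 2.21 and 2.52 CPM in APAP+IBU replicates 1, 2 and 3. Every exposed library was below every control library, and the closest values were 2.66 and 3.04 CPM. Pax2 was the only one of the 8 genes whose groups did not overlap, beside 10.7% of all genes tested and 5.92% with the exposed group on the lower side. Its mean was 3.70 ± 0.791 CPM in controls and 2.46 ± 0.234 CPM in the exposed group (SD, n = 3 each). The log2 fold change was -0.59 ± 0.25 (SE), a fold of 0.666 with a 95% interval from 0.448 to 0.992, with an adjusted p of 0.692 by edgeR. The unadjusted edgeR p was 0.0463 and the exact two-sided permutation p was 0.1, the smallest that test can give. These levels rest on 97 to 171 counts per library, and the counting interval of the lowest control, 2.54 to 3.61 CPM, overlapped that of the highest exposed library, 2.23 to 3.15 CPM. The unadjusted call was lost with library totals as the only scaling, with all genes of at least 1 count, with a length and GC correction, with the replicate number as a block (with or without that correction), and without any 1 library other than control replicate 3, while the log2 fold change stayed between -0.71 and -0.41 over the 6 fits without 1 library.

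Pax8 (ENSMUSG00000026976, chr2:24420560-24475599, minus strand), the partner of PAX2 in the early lineage, was at 10.7, 12.6 and 11.1 CPM in controls and at 12.6, 10.3 and 14.5 CPM in the exposed group. The lowest and the highest of the 6 values were both exposed libraries, and the groups overlapped. The log2 fold change was 0.12 ± 0.18 (SE), with a fold interval of 0.809 to 1.46 and an adjusted p of 0.826 by edgeR. Pax8 shares 367 exon bases with Gm13415 on the opposite strand, and the strand setting of the counting is not given in the sources used here.

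Lhx1 (ENSMUSG00000018698, chr11:84518284-84525535, minus strand), a LIM-homeodomain factor needed for the duct to extend, was at 3.62, 3.11 and 4.88 CPM in controls and 4.85, 2.75 and 5.65 CPM in the exposed group. As for Pax8, both extremes were exposed libraries. The highest exposed value was 2.05 times the lowest, whereas the fold between groups was 1.14, with an interval from 0.684 to 1.9 and an adjusted p of 0.845 by edgeR.

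Gata3 (ENSMUSG00000015619, chr2:9857078-9890034, minus strand) was at 8.97, 5.62 and 4.86 CPM in controls and 3.96, 4.76 and 5.15 CPM in the exposed group. Control replicate 1 stood above the other 5 libraries, at 1.84 times their mean. Over all tested genes that library was the highest in 29% and the lowest in 28.3%. The log2 fold change of Gata3 was -0.49 ± 0.28 (SE) with an adjusted p of 0.692 by edgeR. It was -0.18 without control replicate 1. Gata3 shares 77 exon bases with 9230102O04Rik on the same strand and 155 with Gm13256 on the opposite one.

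**Figure D2:**
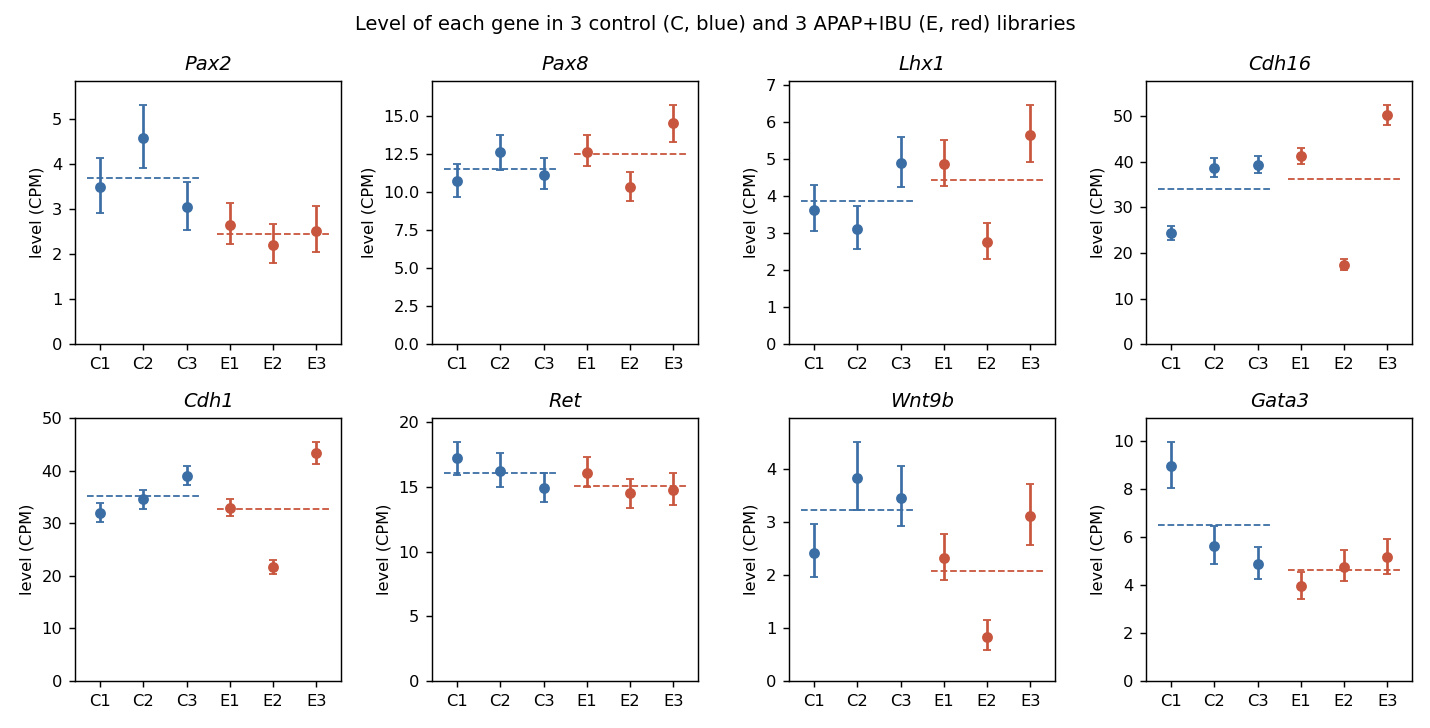
Level of each gene in CPM in control (C1 to C3, blue) and APAP+IBU (E1 to E3, red) libraries, with exact Poisson 95% intervals, which cover counting error only, and a dashed line at each group mean. Pax2 is the only panel in which the red points all lie below the blue ones, and E2 is the lowest point in 7 of the 8 panels. The interval of E2 is clear of all others only for Wnt9b, Cdh16 and Cdh1.

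Both cadherins spread more within the exposed group than between the groups. Cdh16 (ENSMUSG00000031881, chr8:104601911-104624396, minus strand) was at 24.3, 38.7 and 39.3 CPM in controls and at 41.2, 17.3 and 50.2 CPM in the exposed group. Control replicate 1 and APAP+IBU replicate 2 were the low libraries, and the other 4 lay between 38.7 and 50.2 CPM. The exposed values spanned 2.9-fold, the control values 1.61-fold, and the means of 34.1 ± 8.48 and 36.3 ± 17 CPM (SD, n = 3 each) gave a fold of 1.06. The fold interval ran from 0.589 to 1.91, and the adjusted p was 0.941 by edgeR. The sign depended on the scale, since the exposed mean of log2 CPM minus the control mean was -0.0153.

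Cdh1 (ENSMUSG00000000303, chr8:106603351-106670246, plus strand) was at 32, 34.5 and 39 CPM in controls and 32.9, 21.6 and 43.4 CPM in the exposed group. APAP+IBU replicate 2 was again the lowest library and APAP+IBU replicate 3 the highest, with the controls between them. The fold was 0.928, with an interval from 0.631 to 1.37 and an adjusted p of 0.884 by edgeR, and without APAP+IBU replicate 2 the log2 fold change turned from -0.11 to 0.11.

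The signalling genes gave opposite pictures of spread. Ret (ENSMUSG00000030110, chr6:118151745-118197718, minus strand) was at 17.2, 16.2 and 14.9 CPM in controls and 16.1, 14.5 and 14.8 CPM in the exposed group. Its highest library was 1.19 times its lowest, the smallest ratio of the 8 genes. The fold between groups was 0.939, with an interval from 0.74 to 1.19 and an adjusted p of 0.841 by edgeR.

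Wnt9b (ENSMUSG00000018486, chr11:103727364-103749821, minus strand) was at 2.41, 3.83 and 3.45 CPM in controls and 2.31, 0.83 and 3.1 CPM in the exposed group. Its highest library was 4.61 times its lowest, the largest ratio of the 8. The low value in APAP+IBU replicate 2 came from 38 counts, with an exact Poisson interval of 0.587 to 1.14 CPM that lay below the intervals of the other 5 libraries, of which the lowest was 1.91 to 2.76 CPM. The log2 fold change was -0.64 ± 0.45 (SE) with an adjusted p of 0.7 by edgeR. It was -0.27 without APAP+IBU replicate 2.

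**Figure D3:**
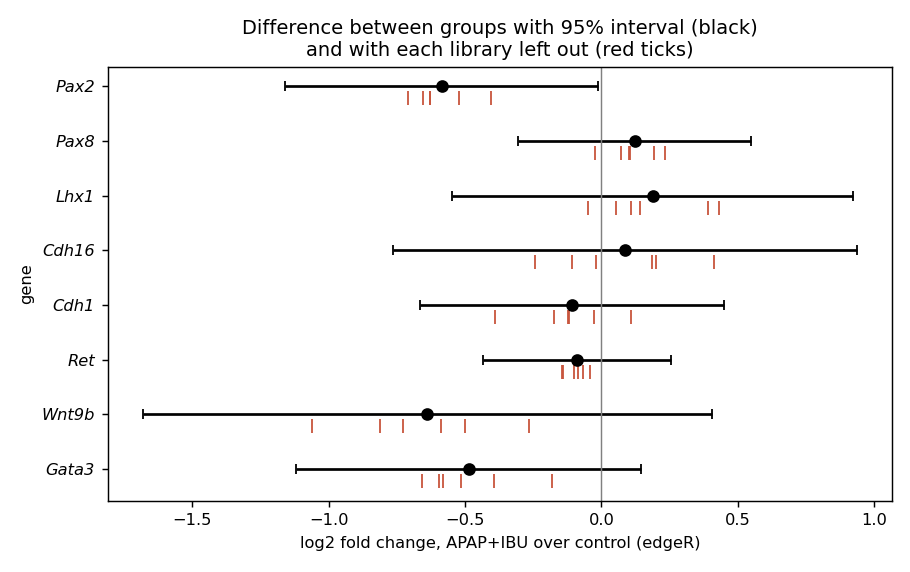
Log2 fold change of APAP+IBU over control for each gene with its 95% interval, derived from the edgeR test (black). Red ticks give the value with each of the 6 libraries left out. The interval of Pax2 ends just below 0 (-1.16 to -0.01), the other 7 cross 0, and the ticks of Pax8, Lhx1, Cdh16 and Cdh1 fall on both sides of it.

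For most of the 8 genes, libraries of 1 group differed by more than the group means did. APAP+IBU replicate 2 was the lowest of the 6 libraries for 7 of the 8 genes, all but Gata3. Over all tested genes this library was the lowest in 13.7%, and in 15.7% of the 6847 genes with a mean level between 2.66 and 35.2 CPM, the range of the 8 genes. APAP+IBU replicate 3 was the highest library for 4 of the 8 (Pax8, Lhx1, Cdh16 and Cdh1), beside 10.9% of all tested genes. Both counts, 7 and 4, were also found with scaling by library totals and by the median of ratios. The counting interval of APAP+IBU replicate 2 lay below those of the other 5 libraries only for Wnt9b, Cdh16 and Cdh1. For Pax2, Pax8, Lhx1 and Ret it overlapped that of the next lowest library, so the rank rested on a small difference there. Relative to the mean of the other 5 libraries, APAP+IBU replicate 2 was at 0.275 for Wnt9b, 0.447 for Cdh16, 0.595 for Cdh1, 0.622 for Lhx1, 0.677 for Pax2, 0.838 for Pax8, 0.833 for Gata3 and 0.913 for Ret. The deficit was thus unequal among the genes. For Gata3 the mean of the other 5 included control replicate 1 at 8.97 CPM. Relative to the mean of the other exposed libraries, Gata3 in APAP+IBU replicate 2 was at 1.04 and showed no deficit.

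Summed over the 8 genes, the level was 102.7, 119.1 and 120.6 CPM in control replicates 1, 2 and 3 and 116.6, 74.31 and 139.3 CPM in APAP+IBU replicates 1, 2 and 3. The sum of the exposed group thus ran from below to above all controls. Cdh16 and Cdh1 weighed most in this sum, with means of 35.2 and 33.9 CPM over the 6 libraries. Ret came next, at 15.6 CPM. The SD of log2 CPM within groups had a median of 0.36 over the 8 genes, beside 0.29 over all tested genes and 0.27 over the genes of the same range of levels. It was above the latter median in 5 of the 8 and ran from 0.09 for Ret to 0.74 for Wnt9b.

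**Figure D4:**
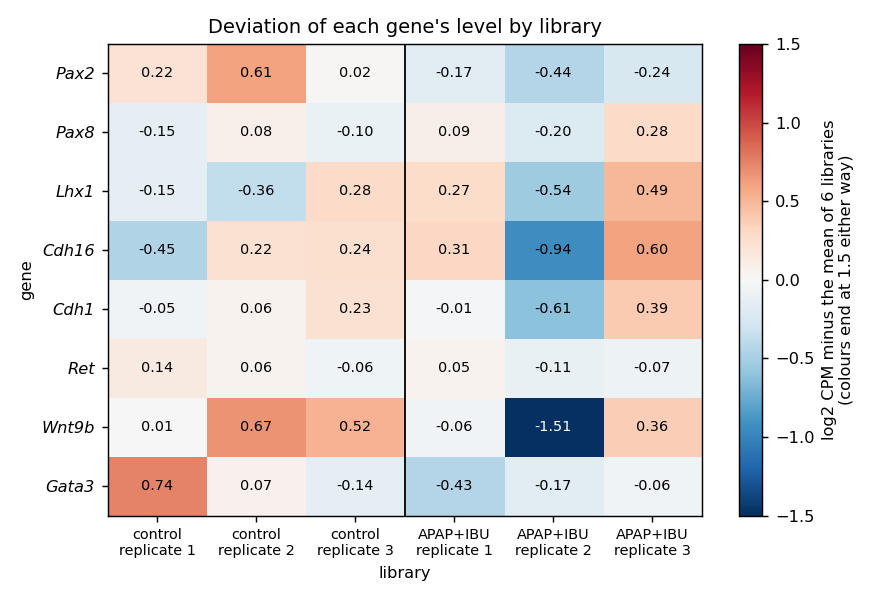
Log2 CPM of each gene minus its mean over the 6 libraries, with controls left of the black line and APAP+IBU libraries right of it (blue lower, red higher). The column of APAP+IBU replicate 2 is blue for all 8 genes, from -0.11 for Ret to -1.51 for Wnt9b, while Gata3 is highest in control replicate 1 (0.74).

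Other genes of the nephric lineage were read from lists of the pathway. Of 19 further regulators of duct and tubules, all tested, 0 passed the adjusted threshold in edgeR, 2 passed an unadjusted p under 0.05 on the lower side (beside 3.21% of all genes on that side), and none on the higher side (beside 3%). These 2 were Foxc2, a forkhead factor of mesoderm, with a log2 fold change of -0.92 ± 0.32 (SE, adjusted p = 0.692 by edgeR), and Tfap2b, an AP-2 factor of the distal nephron and neural crest, with -1.02 ± 0.43 (SE, adjusted p = 0.692 by edgeR). Foxc2 was at 4.49, 4.61 and 2.42 CPM in controls and 2.19, 1.62 and 2.26 CPM in the exposed group. The groups did not overlap, beside 5.92% of all genes tested with the exposed group on the lower side. The closest values, 2.42 and 2.26 CPM, came from 105 and 87 counts. Fold changes of the list were positive for 3 genes and negative for 16, with a median log2 fold change of -0.19. Over all genes tested, 9962 were positive and 10205 negative. Genes of any list here were read in the same 6 libraries, so their signs are not separate observations. Emx2 and Cited1 had the highest levels per length of the list, 47.9 and 18 CPM per kb. Emx2 is also a gene of the gonad itself, and its level, 124 to 177 CPM, was not lowest in APAP+IBU replicate 2 (155 CPM). That library was the lowest for 7 of the 19 genes.

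Of 12 genes of RET signalling, 11 were tested and Pspn was at or near 0. None passed the adjusted threshold in edgeR. At an unadjusted p under 0.05, 1 passed on the lower side, beside 3.21% of all genes on that side. This was Gfra2, the co-receptor for neurturin, with a log2 fold change of -0.45 ± 0.16 (SE, adjusted p = 0.692 by edgeR). It was at 23.4, 21 and 19 CPM in controls and 16.4, 16.4 and 13.7 CPM in the exposed group. Its groups did not overlap, beside 5.92% of all genes tested with the exposed group on the lower side. Fold changes were positive for 3 of the 11 and negative for 8, with a median log2 fold change of -0.16. Etv5 and Dusp6, a transcription factor and a phosphatase that respond to FGF and RET signals, had the highest levels per length, 11.1 and 7.12 CPM per kb. Dusp6 was at 21.9, 23.8 and 23.2 CPM in controls and 22.5, 16.2 and 26.2 CPM in the exposed group, with the low and high libraries of Cdh1. The ligand Gdnf, named after its values were seen, was at 0.63, 1.39 and 0.783 CPM in controls and 4, 0.895 and 0.885 CPM in the exposed group, so that 1 exposed library stood apart (adjusted p = 0.698 by edgeR). Its co-receptor Gfra1, likewise named afterwards, was at 6.56, 7.63 and 8.36 CPM in controls and 11.8, 4.83 and 10.7 CPM in the exposed group, again with APAP+IBU replicate 2 lowest. The lowest library was APAP+IBU replicate 2 for 6 of the 11 tested genes of this list.

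Of 19 general epithelial genes, all tested, 0 passed the adjusted or the unadjusted threshold, beside 0% and 6.22% of all genes tested. Among their fold changes, 5 were positive and 14 negative, with a median log2 fold change of -0.26. The keratins Krt18 and Krt8 had the highest levels per length, 46.3 and 34.1 CPM per kb. Krt18 was at 82.9, 103 and 47.3 CPM in controls and 53, 48.3 and 65.3 CPM in the exposed group, and Krt8 at 84.1, 110 and 39.2 CPM and 52.6, 51.4 and 63.5 CPM. For both, control replicate 3 was the lowest library and control replicate 2 the highest, which was not the order of Cdh1 or Cdh16. The coelomic surface of the gonad also makes keratins. Its 5 markers summed to 255.5 CPM in control replicate 2 and to between 142.5 and 183.5 CPM in the other 5 libraries. One of these markers, Krt19, is a keratin that is also in the epithelial list, and it was at 68.2 CPM in control replicate 2. The part of the surface in the keratin levels was not tested. APAP+IBU replicate 2 was the lowest library for 8 of the 19 epithelial genes and control replicate 3 for 7.

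Genes of the differentiated nephron differed widely in level. Of 13 genes, 11 were tested, and 0 passed either threshold, beside 6.22% of all genes tested at the unadjusted one. Umod and Slc12a1, which mark the thick ascending limb, were at 0 in several libraries and not above 0.0525 CPM in any. Podxl had the highest level of the list per length, 141 CPM per kb, followed by the water channel Aqp1 at 10.6 CPM per kb. Podxl (666 to 852 CPM) is made by podocytes and also by endothelium. For 3 of the 11 tested genes, APAP+IBU replicate 2 was the lowest library. Lrp2, the megalin of proximal tubules, was named after its values were seen and was at 12.4, 21.7 and 29.8 CPM in controls and 18.9, 13 and 19.6 CPM in the exposed group.

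Of 9 genes of the Müllerian duct and its mesenchyme, all tested, 0 passed either threshold, beside 6.22% of all genes at the unadjusted one. Their fold changes were positive for 6 and negative for 3, with a median log2 fold change of 0.01. Amhr2, the receptor of anti-Müllerian hormone, and Wnt5a, a mesenchymal signal, had the highest levels per length, 93.3 and 15.3 CPM per kb, and both are also made in the gonad. Wnt7a, made by Müllerian epithelium and named after its values were seen, was at 4.04, 3.78 and 2.74 CPM in controls and 3.81, 1.51 and 5.34 CPM in the exposed group. For 6 of the 9, APAP+IBU replicate 2 was the lowest library, Wnt7a among them.

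The 8 genes named for a similar pattern, all of mean level at least 1 CPM, followed the mean log2 CPM of the mesonephric genes most closely over the 6 libraries, out of 16054 ranked. They were Marveld2 (Pearson r = 0.986), Plet1 (0.986), Dusp6 (0.983), Ngp (0.982), Plac8 (0.978), Igfbp3 (0.978), Fgf9 (0.977) and Ptger4 (0.974). All 6 points come from the same libraries for every gene, and 1 library lay far below the rest. Without APAP+IBU replicate 2, r over the remaining 5 libraries ran from 0.656 for Igfbp3 to 0.952 for Plac8. Marveld2 encodes tricellulin of tight junctions and was at 11.9, 12.2 and 11.8 CPM in controls and 11.8, 9.5 and 12.5 CPM in the exposed group. Plet1, a surface protein of epithelial progenitors, spread more, with 3.36, 4.44 and 3.48 CPM in controls and 3.65, 1.22 and 4.89 CPM in the exposed group. Ngp was at 0.787, 1.63 and 1.73 CPM in controls and 1.04, 0.153 and 2.16 CPM in the exposed group. For Plac8 the values were 18.4, 23.1 and 22.3 CPM and 19.4, 12.8 and 24.3 CPM, and for Fgf9 4.07, 5.27 and 4.47 CPM and 4.38, 2.53 and 5.52 CPM. Igfbp3 was at 163, 164 and 158 CPM and at 160, 106 and 174 CPM. Which cells carried these 8 genes was not tested. Ptger4 encodes the EP4 receptor of prostaglandin E2 and was at 3.62, 3.8 and 3.27 CPM in controls and 2.76, 1.53 and 4.01 CPM in the exposed group, with a log2 fold change of -0.37 and an adjusted p of 0.745 by edgeR.

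Markers of neurons were also lowest in sum in APAP+IBU replicate 2. The 7 neuronal genes summed to 16.5, 41.5 and 25.5 CPM in controls and to 16.7, 11.3 and 27.7 CPM in the exposed group. For 5 of the 7, APAP+IBU replicate 2 was the lowest library, and none of the 7 was at 0 in any library. Th, tyrosine hydroxylase of catecholamine neurons, was at 0.787, 4.5 and 2.12 CPM in controls and 0.749, 0.24 and 3.51 CPM in the exposed group. Stmn2, a neuronal microtubule regulator, was named after its values were seen. It was at 7.03, 11.2 and 9.12 CPM in controls and 4.44, 4.54 and 5.47 CPM in the exposed group. Its groups did not overlap, beside 5.92% of all genes tested with the exposed group on the lower side. The log2 fold change of Stmn2 was -0.92 ± 0.23 (SE, adjusted p = 0.398 by edgeR). Stmn2 was not lowest in APAP+IBU replicate 2. Sox10, a factor of neural crest glia likewise named afterwards, was at 1.46 CPM in APAP+IBU replicate 2, within its range of 0.507 to 1.79 CPM. Their part in the levels of Ret and Gata3 was not tested.

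The other marker lists did not all share this order. APAP+IBU replicate 2 was lowest for 1 of 8 germ cell genes, 0 of 8 supporting cell genes, 1 of 7 stromal genes, 0 of 5 surface genes, 3 of 6 endothelial genes, 1 of 4 tested adrenal genes, 2 of 4 gut genes, 0 of 8 liver genes and 0 of 8 erythroid genes. It was also lowest for 6 of the 7 spermatid genes, for which all exposed libraries were below all controls in summed level. The summed level ran from 931.3 to 1234 CPM in controls and 1124 to 1180 CPM in the exposed group for germ cells, from 907 to 1290 and 1041 to 1151 CPM for supporting cells, and from 413.4 to 493.8 and 371 to 414.2 CPM for endothelium. The adrenal genes summed to between 17.2 and 25.4 CPM and the gut genes to between 9.63 and 19.2 CPM over all libraries. Liver genes summed to 3025 CPM in APAP+IBU replicate 3, which was highest for 4 of the mesonephric genes, and to 170.1 CPM in APAP+IBU replicate 1. Their part in the levels of the 8 genes was not tested.

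**Figure D5:**
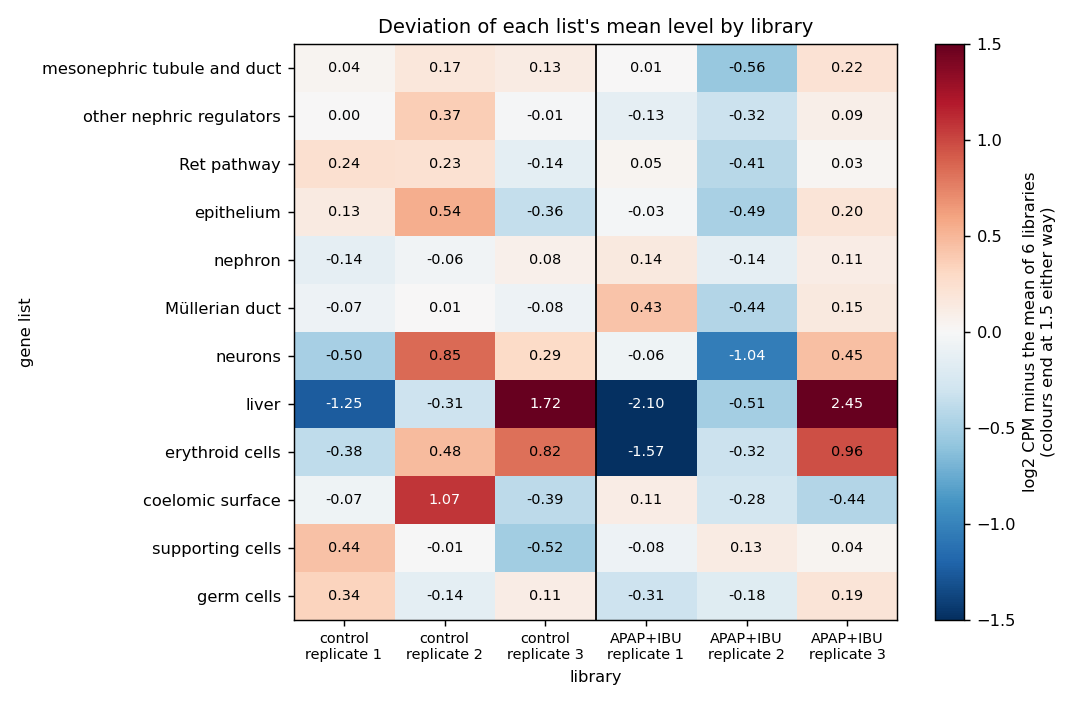
Mean log2 CPM of each gene list minus its mean over the 6 libraries, with the value in each cell (blue lower, red higher, colours end at 1.5 either way). In APAP+IBU replicate 2 every list drawn is below its mean except the supporting cell list (0.13), among them the neuronal (-1.04), mesonephric (-0.56), liver (-0.51), epithelial (-0.49) and Müllerian (-0.44) lists. This column is the lowest of its row for the mesonephric list and is not for the liver list, which is lowest in APAP+IBU replicate 1 (-2.1).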

How the data were processed

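Fetal ovaries of 13.5 dpc were pooled, with 3 control and 3 APAP+IBU pools sequenced. The authors made stranded polyadenylated libraries, mapped reads with TopHat2 2.0.14 and Bowtie2 2.1.0 to mm10, ran HTSeq 0.6.1 on the Ensembl release 86 annotation and deposited raw counts without normalisation. Groups and replicate numbers came from the labels. For the exposed samples the title gives only IBU but the exposure label gives both drugs. The labels do not say whether a replicate number marks an experiment shared by both groups.

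The deposited counts went into edgeR 4.0.16 under R 4.3.3, using TMM scaling and its expression filter, and quasi-likelihood p-values were adjusted by the Benjamini-Hochberg method over 20167 genes. Levels are CPM with TMM scaling, and log2 CPM used a prior count of 1. Each standard error was derived as the absolute log2 fold change divided by the square root of the quasi-likelihood F of edgeR. Intervals of folds came from these standard errors, and counting intervals were exact Poisson. Exact permutation tests were two-sided. Total counts ran from 37811968 to 48954631, which leaves counting error small for all but the lowest genes. Positions, lengths and exon overlaps came from GENCODE on GRCm38, the assembly of mm10, and promoters from RefSeq. Alternatives were DESeq2 1.42.0, other scalings and filters, a length and GC correction, a replicate block and fits without each library. No pair of libraries within a group was alike within sampling noise.

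The genes and lists were chosen with earlier results of these data known. Named were the 8 genes, the 2 genes of highest level per kb and up to 2 of smallest unadjusted p under 0.05 in each nephric, RET, epithelial, nephron and Müllerian list, the 8 genes of most similar pattern, and the first 2 genes of each marker list, of which some are printed. Some genes are not reported here. Marker lists covered germ, supporting, stromal, surface, endothelial, liver, erythroid, adrenal, neuronal, gut and spermatid genes.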

Additional observations from a re-analysis of the deposited data

How the results depend on the processing

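None of the 8 genes passed an adjusted p under 0.05 in edgeR or DESeq2 under any alternative run. The count at an unadjusted p under 0.05, 1 gene by edgeR, ran from 0 to 2 over the fits without 1 library, with 2 (Pax2 and Gata3) without control replicate 3 and where replicate 3 of both groups was left out. The count over all genes tested was 0 by edgeR at an adjusted p under 0.05 (1254 at an unadjusted p under 0.05). It was 192 with DESeq2, 120 with all genes of at least 1 count, 2 with the replicate block, 49 with the replicate block and a length and GC correction, 5607 with replicates 1 and 2 alone, and from 0 to 1064 without 1 library, the latter without control replicate 3. The cause was not tested. The methods describe experiments that each held dams of both groups, but the labels do not say that a replicate number marks one, and deviations of same-numbered libraries correlated at -0.069, -0.015 and -0.044 over all genes tested, although the liver genes were lowest in replicate 1 and highest in replicate 3 of both groups. The pools were therefore not treated as paired. With the replicate block, the unadjusted edgeR p of Pax2 was 0.107. Signs turned for 4 genes with small differences. Cdh16, at 0.09 by edgeR, was at -0.000868 with the replicate block, at -0.081 with replicates 1 and 2 alone and between -0.245 and 0.41 without 1 library. Without 1 library, the log2 fold change ran from -0.022 to 0.234 for Pax8, from -0.0504 to 0.43 for Lhx1 and from -0.39 to 0.11 for Cdh1. Pax2, Ret, Wnt9b and Gata3 kept their negative sign in every fit run. The correlations without APAP+IBU replicate 2 and the lowest libraries under other scalings were chosen after seeing the data. With 3 pools per group, folds such as 0.589 to 1.91 for Cdh16 cannot be told from 1.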
